A study of Rattus norvegicus with 6 samples.

Results

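The transcripts of 55 genes of cell death and survival were followed in RNA from the rat neural retina. The genes were chosen by name, for textbook roles in apoptosis, necroptosis, pyroptosis, parthanatos, calpain proteolysis, the stress response that feeds into them, and axon degeneration. A row of the deposited gene table was taken for a gene when its symbol matched, ignoring case, and rows that shared a symbol were summed. Of the 55 genes, 52 had a row, among 19623 symbols in the table. Hrk and Mcl1 were among the 3 without one.

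The series holds 6 retina samples in 3 groups of 2, all taken at postnatal day 60. Wild-type Long Evans rats and RCS rats (the Royal College of Surgeons strain, with inherited retinal degeneration) had sham surgery at postnatal day 21 with the carrier medium alone. The remaining RCS rats received human neural progenitor cells (hNPCs) under the retina at the same age. Only the part of the neural retina that carried the graft, or the matching part of sham eyes, was used, and the labels do not say whether the samples were separate animals. Every group had undergone surgery, so no unoperated retina was among them.

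Levels are in FPKM, which is a fragment number divided by transcript length and by the mapped fragments of the run. The table gives 1 FPKM value per gene with a lower and an upper bound, and no column names a sample. The strains and the graft could therefore not be compared, and each level describes 1 library or 1 pool of libraries. In whole tissue, fewer cells of a type and less RNA per cell cannot be told apart. Values in brackets after a level are the deposited bounds. If these span 2 standard errors on each side and reflect counting alone, the number of fragments behind a value follows from them. This implied number lay within 0.02 of a whole number in 27 of the 36 member rows with up to 200 fragments, and the members held 17903 of 6124332 implied fragments. Bounds and ratio intervals below cover counting error only, not the spread between animals.

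The tissue label was checked against marker genes. The 5 rod photoreceptor markers ranged from 518 to 6316 FPKM, and the bipolar, Müller glia and ganglion cell markers lay between 3.12 and 617 FPKM. Markers of tissues beside the neural retina were uneven. Of the lens genes, Cryaa and Cryab stood at 427 and 182 FPKM, and Mip and Lim2 at 1.597 and 1.81 FPKM. Of the pigment epithelium genes, Ttr and Rpe65 stood at 152 and 20.7 FPKM, and Lrat and Best1 at 3.94 and 0.270 FPKM. Their part in the levels below was not tested.

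Apoptosis can start at mitochondria, where BAX and BAK open the outer membrane unless BCL2-type proteins hold them, or at death receptors on the cell surface. Both arms end in caspases, proteases that inhibitor of apoptosis proteins can block. Necroptosis runs through the kinases RIPK1 and RIPK3 to the membrane-rupturing protein MLKL, and pyroptosis through inflammasomes and inflammatory caspases. Parthanatos follows overactivity of PARP1 and release of AIF from mitochondria, while calpains are calcium-activated proteases. Loss of photoreceptors in inherited retinal degeneration has been linked to several of these routes, and transcripts of such genes report the supply of the machinery, not its activation.

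Of the 52 genes with a row, 36 (69.2%) reached 1 FPKM, against 61.0% of all symbols. Their median was 3.39 FPKM, beside 3.17 FPKM for all symbols, and 26 of the 52 lay above that symbol median. The list was thus near the table's middle as a whole, but its members spread widely. Faslg and Casp12 were listed at 0, 14 genes lay above 0 and below 1 FPKM, 20 lay from 1 to 10, 10 from 10 to 50, and 6 at 50 FPKM or more. In this top class were 11.5% of the genes, against 4.8% of symbols. Its members were Atf4, Capns1, Ddit3, Xiap, Bnip3 and Bcl2l2, which together made up 71.4% of the summed FPKM of the list.

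**Figure D1:**
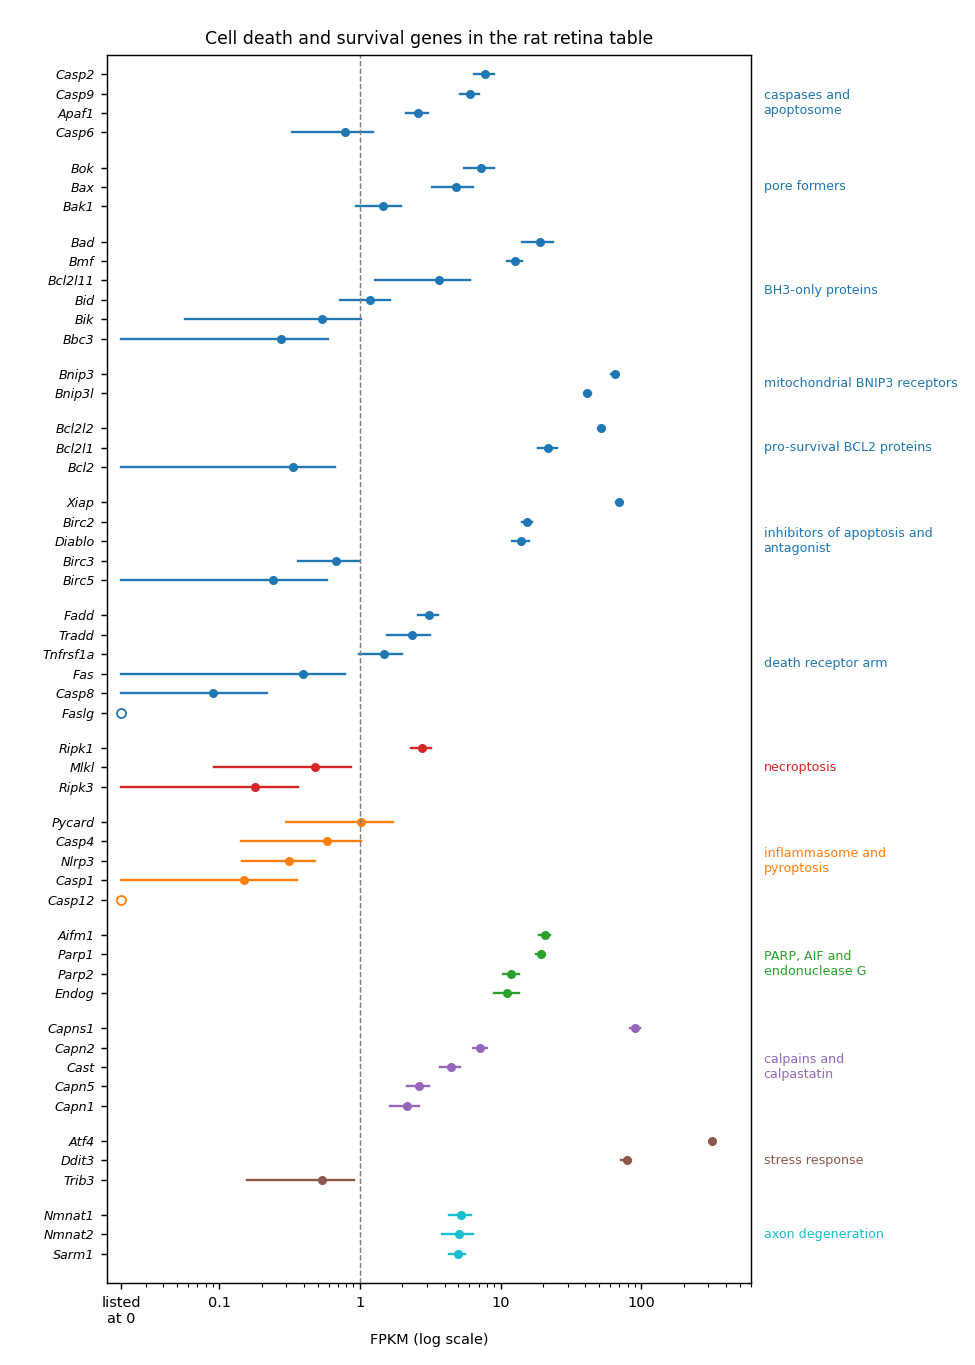
Level of each gene with a row in the table (points, FPKM on a log axis) with its deposited bounds (lines), grouped by role and coloured by route. Open circles mark genes listed at 0, lines with a lower bound of 0 are drawn to that mark, and the dashed line is at 1 FPKM. All parthanatos, calpain and axon degeneration genes lie right of the dashed line, and most inflammasome genes lie left of it.

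When the 50 genes above 0 were ordered by level, 7 of the 49 neighbouring pairs had a ratio whose 95% interval lay above 1. The order was made from the same levels, so no ratio can be below 1 and neighbours are close by construction. The count therefore tests nothing and only describes where the order has clear steps. These steps were Atf4 over Capns1, Capns1 over Ddit3, Ddit3 over Xiap, Bnip3 over Bcl2l2, Bcl2l2 over Bnip3l, Bnip3l over Bcl2l1, and Endog over Casp2. For the remaining neighbours the interval held 1, so their order was not fixed at this depth. Because Capns1 is a sum of 2 rows, its place in this order depends on that sum, as described with the calpains.

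The pro-survival genes of the BCL2 family lay far apart. Bcl2l2, which encodes the survival protein BCL-W, stood at 51.4 FPKM (49.1 to 53.6) from an implied 2098 fragments, above 95.4% of symbols. Bcl2l1, the gene of BCL-XL, stood at 21.7 FPKM. Bcl2 itself, the founding member of the family, was at 0.333 FPKM (0 to 0.665) from 4 fragments. Bcl2l2 was therefore 155 times Bcl2 (95% interval 57.9 to 412), and Bcl2l1 was 65.2 times Bcl2 (24.2 to 176). With 4 fragments behind Bcl2, the size of both ratios is loosely fixed.

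Bcl2l1 was summed over 2 rows, which differ in kind. The row on chromosome 3 (rn5, 154662585 to 154716802) gave 13.1 FPKM (11.7 to 14.5) from 344 fragments. The row on chromosome 1 spans only 514 bp (173950471 to 173950984) and gave 8.61 FPKM (5.61 to 11.6) from 33 fragments. Reads of near-identical copies can be split between rows, so the level is uncertain: 13.1 FPKM with the chromosome 3 row alone and 21.7 FPKM with both. An unnamed row of 896 bp with 30.4 FPKM also lies within the chromosome 3 span. Whether its reads belong to Bcl2l1 cannot be told, so 21.7 FPKM is not an upper limit. Ratios and sums with Bcl2l1 leave this unnamed row out.

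The pore formers were lower than Bcl2l2 and Bcl2l1. Bok, a BAX relative whose product is regulated apart from BCL2 proteins, stood at 7.24 FPKM (5.48 to 8.997). Bax followed at 4.80 FPKM (3.24 to 6.36) and Bak1, the gene of BAK, at 1.45 FPKM (0.931 to 1.98). Bax was 3.30 times Bak1 (2.05 to 5.31). It was 0.663 times Bok (0.446 to 0.986), a difference that ended with an exact interval on the fragments (0.433 to 1.001). Bcl2l1 was 4.52 times Bax (3.18 to 6.42), or 2.73 times with its higher row alone.

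The BH3-only genes, whose products neutralise survival proteins or switch on the pore formers, covered a wide range. Bad, whose product is held inactive by survival-factor phosphorylation, was highest at 18.9 FPKM (14.2 to 23.7). Bmf, linked to loss of attachment, stood at 12.6 FPKM (11.2 to 14.1). Bcl2l11, which encodes BIM, was at 3.67 FPKM (1.29 to 6.05), and Bid, which connects death receptors to mitochondria, at 1.18 FPKM (0.717 to 1.64). Bik was at 0.539 FPKM from 5 fragments. Bbc3, which encodes PUMA, was at 0.277 FPKM from 3 fragments. Bcl2l11 was 13.3 times Bbc3 (3.62 to 48.6), with under 10 fragments behind each.

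Sums over these roles can be compared because FPKM are already per length. The 3 measured survival genes summed to 73.4 FPKM (69.4 to 77.4), the 3 pore formers to 13.5 FPKM (11.1 to 15.9) and the 6 measured BH3-only genes to 37.3 FPKM (31.7 to 42.8). The survival sum was 5.44 times the pore former sum (4.53 to 6.53) and 1.97 times the BH3-only sum (1.69 to 2.30). Against pore formers and BH3-only genes together it was 1.45 times (1.27 to 1.65). That last ratio turned in direction, to 0.897, when the highest member of each sum (Bcl2l2, Bok and Bad) was left out. Mcl1, a further survival gene, and Hrk, a further BH3-only gene, had no row and are missing from the sums. Genes of the wider BCL2 family, described below, are not in the sums either.

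Bnip3 and Bnip3l, whose products sit on the outer mitochondrial membrane and recruit the autophagy machinery, were among the highest genes of the list. Bnip3, a hypoxia-responsive gene, stood at 64.9 FPKM (61.1 to 68.8) and Bnip3l, also called NIX, at 41.5 FPKM (39.3 to 43.6). Bnip3 was 1.57 times Bnip3l (1.45 to 1.69). By implied fragments, which are not divided by length, the order turned: 1132 fragments lay behind Bnip3 and 1529 behind Bnip3l.

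Among the apoptotic caspases and their scaffold, the initiators were the better represented. Casp2, an initiator caspase, stood at 7.70 FPKM (6.46 to 8.94). Casp9, the initiator of the mitochondrial arm, stood at 6.08 FPKM (5.11 to 7.05), and Apaf1, the scaffold on which it is activated, at 2.59 FPKM (2.14 to 3.04). Casp9 was 2.34 times Apaf1 (1.86 to 2.95). Casp6, an effector caspase, was lower at 0.783 FPKM (0.331 to 1.24) from 12 fragments, or 0.129 times Casp9 (0.0716 to 0.232). The Casp6 row lies within the span of Arsj, a row at 0.102 FPKM.

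Of the inhibitors of apoptosis, Xiap, which encodes a direct caspase inhibitor, was at 69.2 FPKM (66.0 to 72.3) from 1930 fragments, above 97.0% of symbols. Diablo, the gene of the mitochondrial protein SMAC that displaces XIAP from caspases, stood at 14.0 FPKM, or 0.203 times Xiap (0.175 to 0.235). Birc2 and Birc3 encode the related ubiquitin ligases cIAP1 and cIAP2 of TNF receptor signalling. They are neighbours on chromosome 8 (rn5, 6015752 to 6033822 and 6047454 to 6058253), with 13631 bp between them. Birc2 stood at 15.5 FPKM (14.2 to 16.8) and Birc3 at 0.674 FPKM (0.364 to 0.983), a ratio of 23.1 (14.6 to 36.4). Birc5, which encodes the mitotic protein survivin, was at 0.242 FPKM from 2 fragments. The dividing cell genes Mki67, Top2a and Ccnb1 were at 0.424, 0.527 and 1.08 FPKM.

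The death receptor arm had a median of 0.940 FPKM, and none of its 6 genes exceeded the symbol median of 3.17 FPKM. Its adaptors were highest: Fadd, which links receptors to caspase-8, stood at 3.10 FPKM (2.59 to 3.62), and Tradd, the adaptor of TNF receptor 1, at 2.35 FPKM (1.55 to 3.16). The bounds of Fadd held the symbol median. Of the receptors, Tnfrsf1a was at 1.49 FPKM (0.984 to 1.99) and Fas at 0.393 FPKM (0 to 0.786) from 4 fragments. Tnfrsf1a was 3.78 times Fas (1.34 to 10.7). Faslg, the ligand of Fas, was listed at 0. Casp8, the initiator caspase of this arm and the brake on necroptosis, was at 0.0902 FPKM from 2 fragments, the lowest member above 0. An exact Poisson 95% interval put it between 0.0109 and 0.326 FPKM. Casp9 was 67.4 times Casp8 (16.7 to 272).

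The necroptosis genes were unequal. Ripk1, which also serves survival signalling, stood at 2.76 FPKM (2.31 to 3.22) from 147 fragments. Ripk3, the kinase that commits cells to this route, was at 0.181 FPKM (0 to 0.361) from 4 fragments. Mlkl, the executioner, was at 0.477 FPKM (0.0925 to 0.861) from about 6 fragments. Ripk1 was 15.3 times Ripk3 (5.67 to 41.3). Ripk3 was 0.379 times Mlkl with an interval of 0.108 to 1.33, so that their order was not fixed at this depth.

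The inflammasome and pyroptosis genes were the lowest group, with a median of 0.311 FPKM and 31 implied fragments over all 5. Pycard, the adaptor ASC, was at 1.01 FPKM (0.297 to 1.73) from 8 fragments, and the sensor gene Nlrp3 at 0.311 FPKM (0.145 to 0.478) from 14 fragments. Pycard was 3.26 times Nlrp3 by FPKM (1.37 to 7.76) but 0.571 times by fragments, since 1 fragment counted for 0.127 FPKM in Pycard and 0.0222 FPKM in Nlrp3. The inflammatory caspase genes Casp1, Casp4 and Casp12 lie within 80370 bp of chromosome 8 (rn5, 2627972 to 2708341). Casp4 was at 0.583 FPKM from 7 fragments, Casp1 at 0.149 FPKM from 2 fragments, and Casp12 was listed at 0. The ratio of Casp1 to Casp4 was 0.256 with an interval of 0.0531 to 1.23.

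Inflammasome genes are expressed mainly by microglia and macrophages, whose markers were mostly low in the same table. Of 9 such markers, 4 reached 1 FPKM, against 61.0% of all symbols, and the median over the list was 0.496 FPKM. Aif1 at 4.12 FPKM and Csf1r at 3.62 FPKM, from 150 fragments, lay above the symbol median of 3.17 FPKM. P2ry12 stood at 1.63 FPKM and Cx3cr1 at 1.37 FPKM. The 9 markers summed to 11.8 FPKM, and Cd68 and Spi1 were listed at 0. The part of these cells in the inflammasome levels was not tested.

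The parthanatos group stood in contrast. Aifm1, the gene of AIF, was at 20.6 FPKM (18.7 to 22.4) and Parp1, the DNA damage sensor that makes poly(ADP-ribose), at 19.3 FPKM (17.96 to 20.7). Parp2, a PARP1 relative, was at 11.9 FPKM (10.3 to 13.4) and Endog, a mitochondrial nuclease, at 11.2 FPKM (8.92 to 13.4). Parp1 was 1.63 times Parp2 (1.41 to 1.88), and Aifm1 was 1.84 times Endog (1.48 to 2.29). The Endog row shares 558 bp with the row of D2Wsu81e, at 5.99 FPKM, so some of its reads may not be its own. The lowest of these 4 genes, Endog, lay above the highest of the 14 genes of the death receptor, necroptosis and pyroptosis groups, Fadd. Of those 14, 5 reached 1 FPKM, with a median of 0.435 FPKM, whereas 31 of the other 38 genes did, with a median of 6.64 FPKM. Over all symbols, 61.0% reached 1 FPKM. The 14 genes make up the only roles of the list with no gene above the symbol median. This split thus follows the levels it reports and tests nothing.

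The calpain system had all 5 genes above 1 FPKM, a level that 61.0% of all symbols reached. Capn2, the catalytic subunit of m-calpain, stood at 7.19 FPKM (6.35 to 8.03) and Capn1, that of µ-calpain, at 2.14 FPKM (1.64 to 2.65), a ratio of 3.36 (2.59 to 4.34). Capn5, a calpain gene mutated in a human inflammatory retinal disease, was at 2.64 FPKM (2.18 to 3.10), or 1.23 times Capn1 with an interval of 0.923 to 1.64. Cast, which encodes the calpain inhibitor calpastatin, was at 4.44 FPKM (3.71 to 5.17).

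Capns1, the small regulatory subunit shared by both classical calpains, was the second highest gene of the list at 90.0 FPKM summed over 2 rows. Both rows lie on chromosome 1 of rn5, 2.39 Mb apart (89809819 to 89815219 and 92195710 to 92201110), each spanning 5401 bp. They gave 43.7 FPKM (38.6 to 48.9) from 284 fragments and 46.2 FPKM (40.9 to 51.5) from 300.0 fragments. Near both, Tbcb and Polr2i also have a row each. Whether reads that fit both places were counted in each is not given in the sources used here, so the level lies between 46.2 and 90.0 FPKM. Cast was 0.0493 times Capns1 (0.0412 to 0.0591) with the sum and 0.0960 times with the higher row alone.

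Atf4, Ddit3 and Trib3 form a chain in the integrated stress response: the transcription factor ATF4 induces CHOP, the product of Ddit3, and both drive Trib3, a pseudokinase gene. Their promoter windows are shown because these genes stand in 1 regulatory chain and yet lie far apart in level. The sequences are RefSeq windows of 300 bases in build GRCr8, from 250 before to 50 after the gene start. Capitals mark matches, on either strand, to the CCAAT box, the TATA box TATAAA, the GC box GGGCGG, the E-box CACGTG or the motif TGATGCAA. The last is a core of the element that ATF4 binds with C/EBP proteins.
Atf4 (chr7:113684431-113684730, plus strand): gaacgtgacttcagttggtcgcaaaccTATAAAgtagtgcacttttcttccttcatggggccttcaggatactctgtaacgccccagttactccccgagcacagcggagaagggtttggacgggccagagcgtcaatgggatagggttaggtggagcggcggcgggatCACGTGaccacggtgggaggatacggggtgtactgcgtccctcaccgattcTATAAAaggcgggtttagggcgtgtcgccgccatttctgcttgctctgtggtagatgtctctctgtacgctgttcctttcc
Ddit3 (chr7:65001445-65001744, plus strand): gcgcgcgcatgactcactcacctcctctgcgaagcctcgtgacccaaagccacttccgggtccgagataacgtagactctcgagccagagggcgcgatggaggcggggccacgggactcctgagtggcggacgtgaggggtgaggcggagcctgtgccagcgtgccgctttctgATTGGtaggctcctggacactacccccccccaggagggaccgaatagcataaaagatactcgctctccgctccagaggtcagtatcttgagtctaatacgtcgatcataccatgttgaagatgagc
Trib3 (chr3:161275484-161275783, minus strand): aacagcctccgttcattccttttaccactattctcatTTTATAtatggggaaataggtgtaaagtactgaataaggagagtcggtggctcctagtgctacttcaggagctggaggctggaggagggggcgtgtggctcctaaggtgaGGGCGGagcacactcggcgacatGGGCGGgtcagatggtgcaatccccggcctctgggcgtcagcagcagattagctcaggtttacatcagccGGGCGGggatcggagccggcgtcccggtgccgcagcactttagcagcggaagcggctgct

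In the Atf4 window, TATAAA occurred 2 times and CACGTG 1 time. The Ddit3 window held 1 CCAAT match, on the opposite strand, and the Trib3 window held 3 GGGCGG matches and 1 of TATAAA on the opposite strand. TGATGCAA was in none of these windows, which says only that those letters are not there. Among all 33469 RefSeq promoter windows, 37.5% held CCAAT, 14.2% TATAAA, 33.1% GGGCGG, 6.42% CACGTG and 0.79% TGATGCAA. None of the motifs overlapped another in the windows shown.

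Atf4 was the highest of all 52 genes at 319 FPKM (309.9 to 328) from 4731 fragments, at rank 71 among all symbols. ATF4 protein is set largely by translation, so this is a level of its message alone. Ddit3 stood at 78.5 FPKM (72.3 to 84.8), and Atf4 was 4.06 times Ddit3 (3.74 to 4.41). The Ddit3 row overlaps that of Mars, at 20.6 FPKM, by 63 bp. Trib3, at the end of the chain, was at 0.536 FPKM (0.157 to 0.915) from 8 fragments. These 3 genes thus held both the top and a low place of the list.

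The 3 axon degeneration genes had nearly the same level. Nmnat1, the nuclear NAD synthase gene mutated in a form of Leber congenital amaurosis, stood at 5.26 FPKM (4.31 to 6.20). Nmnat2, the short-lived axonal NAD synthase, stood at 5.09 FPKM (3.83 to 6.35), and Sarm1, the NAD-cleaving executioner of axon loss, at 4.98 FPKM (4.33 to 5.63). Nmnat2 was 0.969 times Nmnat1 (0.717 to 1.31), and Sarm1 was 0.978 times Nmnat2 (0.743 to 1.29). By implied fragments Sarm1 had 235 and Nmnat2 65, so the likeness holds per length only.

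**Figure D2:**
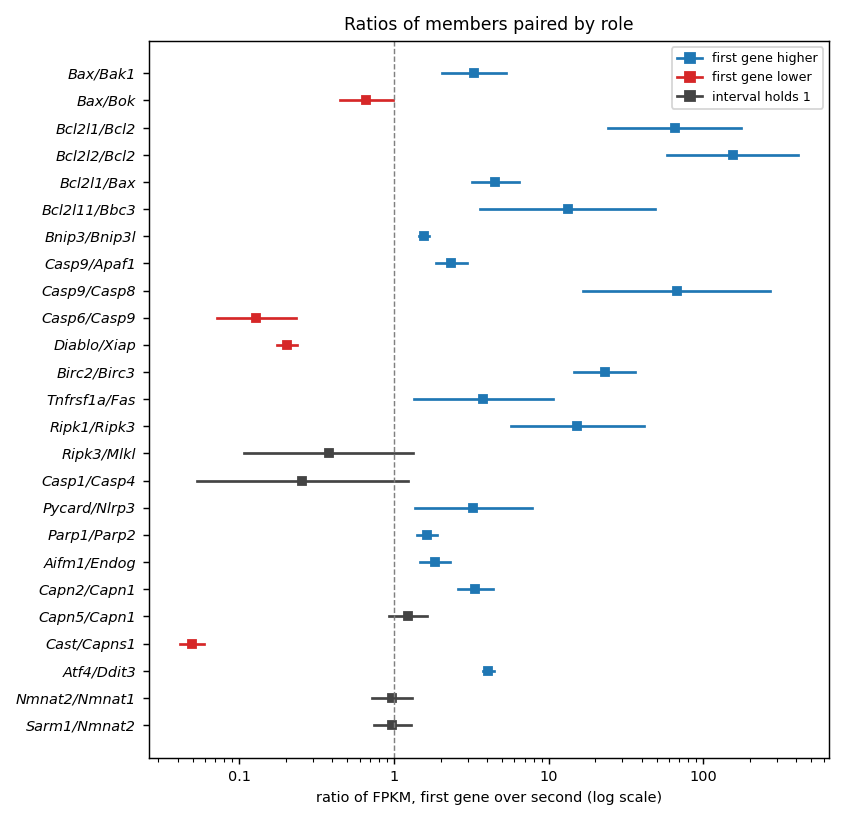
Ratios of FPKM for 25 pairs of genes set by role (squares, first gene over second, log axis) with 95% intervals from counting error (lines). The interval leaves out 1 in 20 pairs, with the first gene higher in 16 (blue) and lower in 4 (red), and holds 1 in 5 (grey).

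Set side by side, the routes had medians of 3.10 FPKM for the 29 measured apoptosis genes, 0.477 for 3 necroptosis genes, 0.311 for 5 pyroptosis genes, 15.6 for 4 parthanatos genes and 4.44 for 5 calpain genes. For the stress response (3 measured genes) it was 78.5 FPKM, and for axon degeneration (3 genes) 5.09 FPKM. Genes of a route are not replicates, so these medians are descriptions without a test. They also pool genes that promote death with genes that restrain it. The calpain median is the level of Cast, the inhibitor gene, and the apoptosis set includes Xiap, Bcl2l2 and Bnip3. Within apoptosis the range ran from Faslg, listed at 0, to Xiap at 69.2 FPKM.

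Further genes of the same routes gave a background to each group. Of 79 such genes, 77 had a row and 56 reached 1 FPKM, where 61.0% of all symbols did. The single lists are short, so their counts, here and below, are descriptions beside that share. Among caspases and released factors, all 6 reached 1 FPKM, led by Cycs (cytochrome c) at 201 FPKM and Htra2, a mitochondrial protease gene, at 9.07 FPKM. Cycs is a sum of 38.3 FPKM from its chromosome 4 row and 163 FPKM from a row of 319 bp on chromosome 18, and is uncertain for that reason. In the wider BCL2 family 4 of 7 reached 1 FPKM, led by Bcl2l13 at 12.8 FPKM and Pmaip1, the gene of NOXA, at 4.10 FPKM from 6 fragments. All 4 mitophagy genes reached 1 FPKM, with the kinase gene Pink1 at 14.4 FPKM and the receptor gene Fundc1 at 12.7 FPKM.

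The low groups did not extend to all genes around them. Of further death receptor genes, 4 of 8 reached 1 FPKM, led by the TNF receptor adaptor Traf2 at 8.05 FPKM and the neurotrophin receptor gene Ngfr at 6.31 FPKM, while Tnf was listed at 0. Of 5 measured necroptosis regulators, 4 did, led by Tnfaip3, the NF-kappaB brake A20, at 37.8 FPKM and the mitochondrial phosphatase gene Pgam5 at 10.6 FPKM. Of 10 further pyroptosis genes only 3 did, Nek7 at 12.4 FPKM, Dfna5 (gasdermin E) at 4.59 FPKM and Gsdmd (gasdermin D, named as the last of the 3) at 2.16 FPKM. Nek7, which licenses NLRP3, has mitotic roles as well. The median of these 10 was 0.107 FPKM.

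All 5 measured parthanatos relatives reached 1 FPKM, led by Mif, reported as a nuclease partner of AIF, at 118 FPKM and Rnf146, a ligase that reads poly(ADP-ribose), at 24.7 FPKM. Of 10 further calpains 4 did, led by Capn7 at 26.9 FPKM and Capn10 at 10.02 FPKM, so that Capn7 stood above every catalytic calpain of the list. All 15 further stress response genes did, led by the chaperone gene Hspa5 at 121 FPKM and Xbp1 at 43.6 FPKM. All 7 further axon degeneration genes did, led by Stmn2, a microtubule regulator, at 57.2 FPKM and Map3k12, the injury kinase DLK, at 30.6 FPKM.

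**Figure D3:**
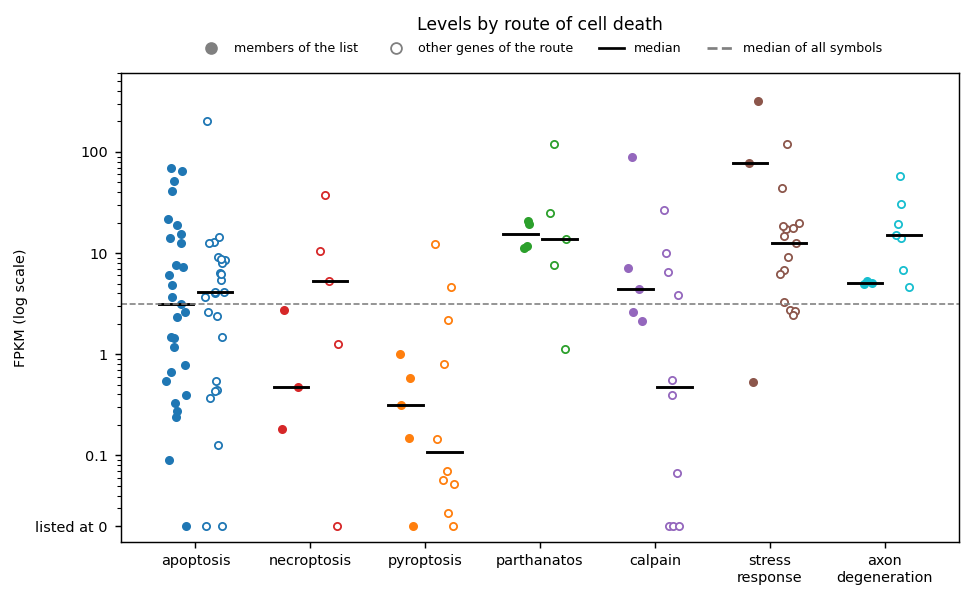
FPKM (log axis) of the listed genes (filled) and of further genes of the same route (open), by route, with the median of each set (black bar) and of all symbols (dashed line, 3.17 FPKM). Points at the lowest tick are listed at 0. Both sets of the pyroptosis route have medians below 1 FPKM and both sets of the parthanatos route above 10 FPKM.

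The depth behind these levels was uneven. Of the genes above 0, 13 rested on under 10 implied fragments: Casp8, Casp1, Birc5, Bbc3, Bcl2, Fas, Ripk3, Bik, Mlkl, Casp4, Trib3, Pycard and Bcl2l11. Exact Poisson intervals for them were wide, such as 0.0906 to 0.851 FPKM for Bcl2, 0.0492 to 0.462 FPKM for Ripk3 and 0.231 to 1.06 FPKM for Trib3. For Pycard the interval of 0.438 to 2.00 FPKM held 1, so its place among genes that reached 1 FPKM is not fixed. Bcl2l11 reached 3.67 FPKM from under 10 fragments because each counted for 0.387 FPKM, against 0.0245 FPKM in Bcl2l2. A row listed at 0 gives no value per fragment, so no upper limit could be set for Faslg and Casp12.

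**Figure D4:**
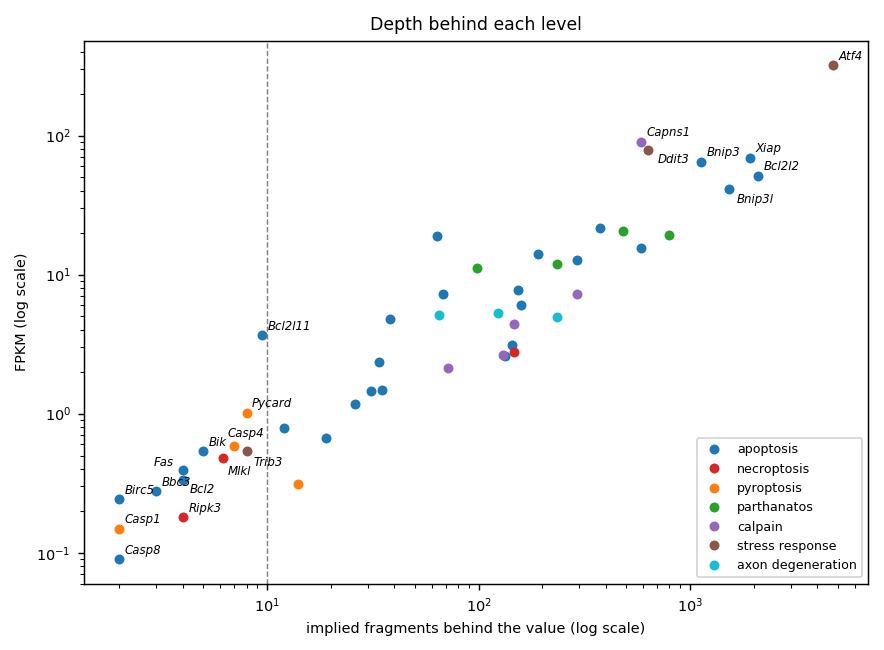
FPKM of each gene above 0 (log axis) against the fragments implied by its deposited bounds (log axis), coloured by route. Left of the dashed line at 10 fragments lie 13 genes, and Atf4 lies farthest right with 4731.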

How the data were processed

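RNA from 6 rat retina samples was sequenced after library construction with the Ion Total RNA-seq Kit, per the labels' protocols. The authors deposited 1 gene table in the layout of Cufflinks, per the file headers, whose values are FPKM, each with its lower and upper bound. The submitters' processing notes name Cufflinks 2.0.8 and build rn5. The sources used here do not give the aligner, annotation, strand setting, confidence level or any pooling. Without a known strand setting, reads of overlapping rows cannot be told apart.

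The genes, roles, pairs and further lists were chosen with earlier results of this table known. Each listed gene with a row was named, and of each further list the 2 highest. Using scipy 1.17.1, numpy 2.4.6 and pandas 2.3.3 under Python 3.11.15, the FPKM of rows sharing a symbol were summed (2 members), with bounds from the root of summed squares. Implied fragments are the square of FPKM over its standard error, taken as the distance to the upper bound divided by 2. Ratio intervals use 1.96 standard errors on the log scale. Of the 27 pairs, Mcl1/Bcl2 and Fas/Faslg gave no ratio. Group comparisons with limma and their alternatives, planned in case the table held a value per library, were not run. All 54 member rows have the status OK. Promoter windows come from RefSeq (GRCr8). Other minimum levels, row choices, symbol matches and intervals were tried as alternatives. Results for some genes of the lists are not reported here.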

Additional observations from a re-analysis of the deposited data

How the results depend on the processing

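Of the 52 genes with a row, 36 reached 1 FPKM. This count stayed between 32 and 41 under 7 other settings and was 22 at a minimum of 5 FPKM, where 42.3% of the genes and 42.8% of all symbols remained. Route medians were recomputed 14 times, with the higher row per symbol or with members above 0 only, but most of these could not change them. The higher row could move none, because Bcl2l1 and Capns1 lay above their route median either way. Leaving out genes at 0 could move only apoptosis and pyroptosis, the routes with such a gene. Their medians went from 3.103 to 3.385 FPKM and from 0.311 to 0.447 FPKM, both within the counting interval. The planned match by RefSeq synonyms is not reported here. Without the highest member of each sum, the survival sum was 3.52 times the pore former sum, 1.20 times the BH3-only sum and 0.897 times both together, the last turned in direction. With implied fragments, which are not divided by length, Bnip3 was 0.740 times Bnip3l and Pycard 0.571 times Nlrp3, both turned. A further 12 pair ratios left their interval on the same side of 1, and Sarm1 to Nmnat2, whose interval held 1, went from 0.978 to 3.62. With the higher row alone, 2 pair ratios left theirs, those of Bcl2l1 to Bax (2.73) and Cast to Capns1 (0.0960). The exact interval, chosen after seeing the data like the minimum of 10 fragments, left out 1 in 19 pairs, against 20. No paired analysis was possible because no value column belongs to a named sample. The fits planned per library (replicate block, pseudocount, leaving out each library) could not be run either.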

Other observations

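Some sets of genes outside the lists, joined by symbol, were read after their values had been seen. Of the symbols that begin with Tmbim or Faim, a set joined by name, 5 of 6 reached 1 FPKM, against 61.0% of all symbols in the table. Tmbim6, the gene of BAX inhibitor 1, stood at 126 FPKM (118 to 135), above Bcl2l2 and Xiap. Faim, an inhibitor of FAS-induced death, was summed to 130 FPKM over 2 rows on chromosome 8, of 69.1 and 61.3 FPKM, and is uncertain if reads fit both. The neuronal gene Faim2 stood at 25.8 FPKM (23.3 to 28.4) and Tmbim4 at 16.0 FPKM (13.2 to 18.8), while Faim3 was listed at 0.

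All 6 BAG co-chaperone genes reached 1 FPKM, from Bag3 at 1.11 FPKM (0.697 to 1.52) to Bag6 at 35.5 FPKM (33.3 to 37.8). Of 10 Pdcd symbols, a set joined by name and not by function, 9 did, with a median of 11.4 FPKM, and the immune checkpoint gene Pdcd1 was listed at 0 in both of its rows. Of the symbols that begin with Birc or Naip, which include Birc2, Birc3 and Birc5 of the list, 3 of 7 reached 1 FPKM, with a median of 0.674 FPKM. Among them, Birc6 stood at 11.97 FPKM (11.4 to 12.5) from 1750 fragments, below Birc2, and Naip5 at 0.132 FPKM (0.0284 to 0.235). What lies behind these levels was not tested.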
